A study of Mus musculus with 4 samples.

Results

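The genes described are 35 PPAR and fatty acid oxidation genes, taken by symbol from the 40092 genes of an RNA-seq count table. They comprise the 3 PPAR nuclear receptors, 2 coactivators, and the shuttle proteins, enzymes and other target genes through which fatty acids are taken up and burnt. The RNA came from alveolar type II (AT2) cells, which make surfactant and renew the alveolar lining, sorted as GFP+ cells from mouse lungs on day 14 after bleomycin injury. The 2 Ctrl libraries carried Alkbh5flox/+; Sftpc-CreERT2; Rosa26-mTmG and the 2 A5-CKO libraries carried Alkbh5flox/flox; Sftpc-CreERT2; Rosa26-mTmG, so that the controls kept a single intact allele of the m6A demethylase gene Alkbh5. Cre recombinase was driven by the AT2 gene Sftpc and switched on by tamoxifen in all 4 samples, and the same recombination turned on the green reporter used for sorting. The comparison asks what loss of Alkbh5 does to the AT2 transcriptome after injury. Ages were not given in the sources used here.

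PPARs are ligand-activated receptors that pair with RXR on DNA and switch on genes for fatty acid uptake, storage and oxidation, and the PGC-1 coactivators strengthen this program. Long fatty acids enter mitochondria as carnitine esters and are then shortened in repeated rounds by a dehydrogenase, a hydratase, a second dehydrogenase and a thiolase. The electrons taken by the first step pass through the electron transfer flavoprotein into the respiratory chain. AT2 cells handle large amounts of lipid because they make and recycle surfactant.

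Total counts ranged from 18144865 to 20811757 per library. Levels are given as normalised read counts (CPM, counts scaled to library sizes that were adjusted by TMM), in the order Ctrl 1, Ctrl 2, A5-CKO 1 and A5-CKO 2, and a floor of 3 counts corresponds to 0.128 to 0.177 CPM by counting error only. The targeted gene Alkbh5 had 81.7, 152, 19.3 and 36.6 CPM. Its log2 fold change was -2.06 ± 0.46 (SE), with an adjusted p of 0.528 in edgeR's quasi-likelihood test and of 0.0224 in DESeq2 at its default filter. The AT2 labels were checked on 10 markers, which summed to 56700, 82200, 42200 and 34900 CPM. All 10 AT2 markers had a log2 fold change below 0, with a median of -0.86, where 50.9% of all genes tested lay below 0. For 7 of them the A5-CKO pair lay below the Ctrl pair without overlap, where 23.5% of all genes did. In sorted bulk RNA, fewer cells of a type and less RNA per cell cannot be told apart.

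Most of the fatty acid oxidation genes were at lower levels in the A5-CKO libraries, by less than 2-fold. Of the 35 members, 34 had enough counts to be tested, and 28 of these, or 82.4%, had a log2 fold change below 0, against 50.9% of all 16661 genes tested. Their median log2 fold change was -0.39, against -0.017 for all genes. No member had an adjusted p under 0.05 in edgeR, where 0.0% of all genes did, or in limma voom. In DESeq2 at its default filter 1 member did, Acadvl, where 0.385% of all genes did. At an unadjusted p under 0.05 in edgeR, 7 members were lower in A5-CKO, where 4.71% of all genes were, and 1 was higher, where 4.48% of all genes were. The 7 were Echs1, Acads, Hadh, Etfb, Eci1, Acot7 and Acaa2, and the 1 was Acadvl, whose counts are treated separately because genes next to it had almost no reads. The A5-CKO pair lay below the Ctrl pair for 19 of the 34 members, where 23.5% of all genes did, and above them for 2 members, where 20.3% of all genes did.

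The number of lower members depended on the scaling. With total counts only, the median of the members was -0.068, that of all genes moved to 0.30, and 0 members were lower at an unadjusted p under 0.05. Of all 16661 genes, 1877 had such a p in either direction with total counts only, against 1530 with TMM factors. The median of the members lay below that of all genes in every setting tried. With total counts only, 20 of the 34 members lay below 0, against 28 with TMM factors. With a correction for GC content and transcript length, 4 members were lower at that threshold, where 4.8% of all genes were, and 1 was higher, Acadvl, where 2.53% were. Of the 4, Echs1 and Hadh were also lower without the correction, whereas Decr1 and Cd36 were not. Acads, Etfb, Acaa2, Eci1 and Acot7 no longer had an unadjusted p under 0.05 with it. Without Ctrl 2 the members' median was -0.14, where that of all genes was 0.065. The members' median was -0.42 without A5-CKO 1 and -0.37 without A5-CKO 2, where those of all genes were -0.08 and -0.075. The levels of AT2 markers moved in the same direction as those of the members, and their part in the result was not tested.

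**Figure D1:**
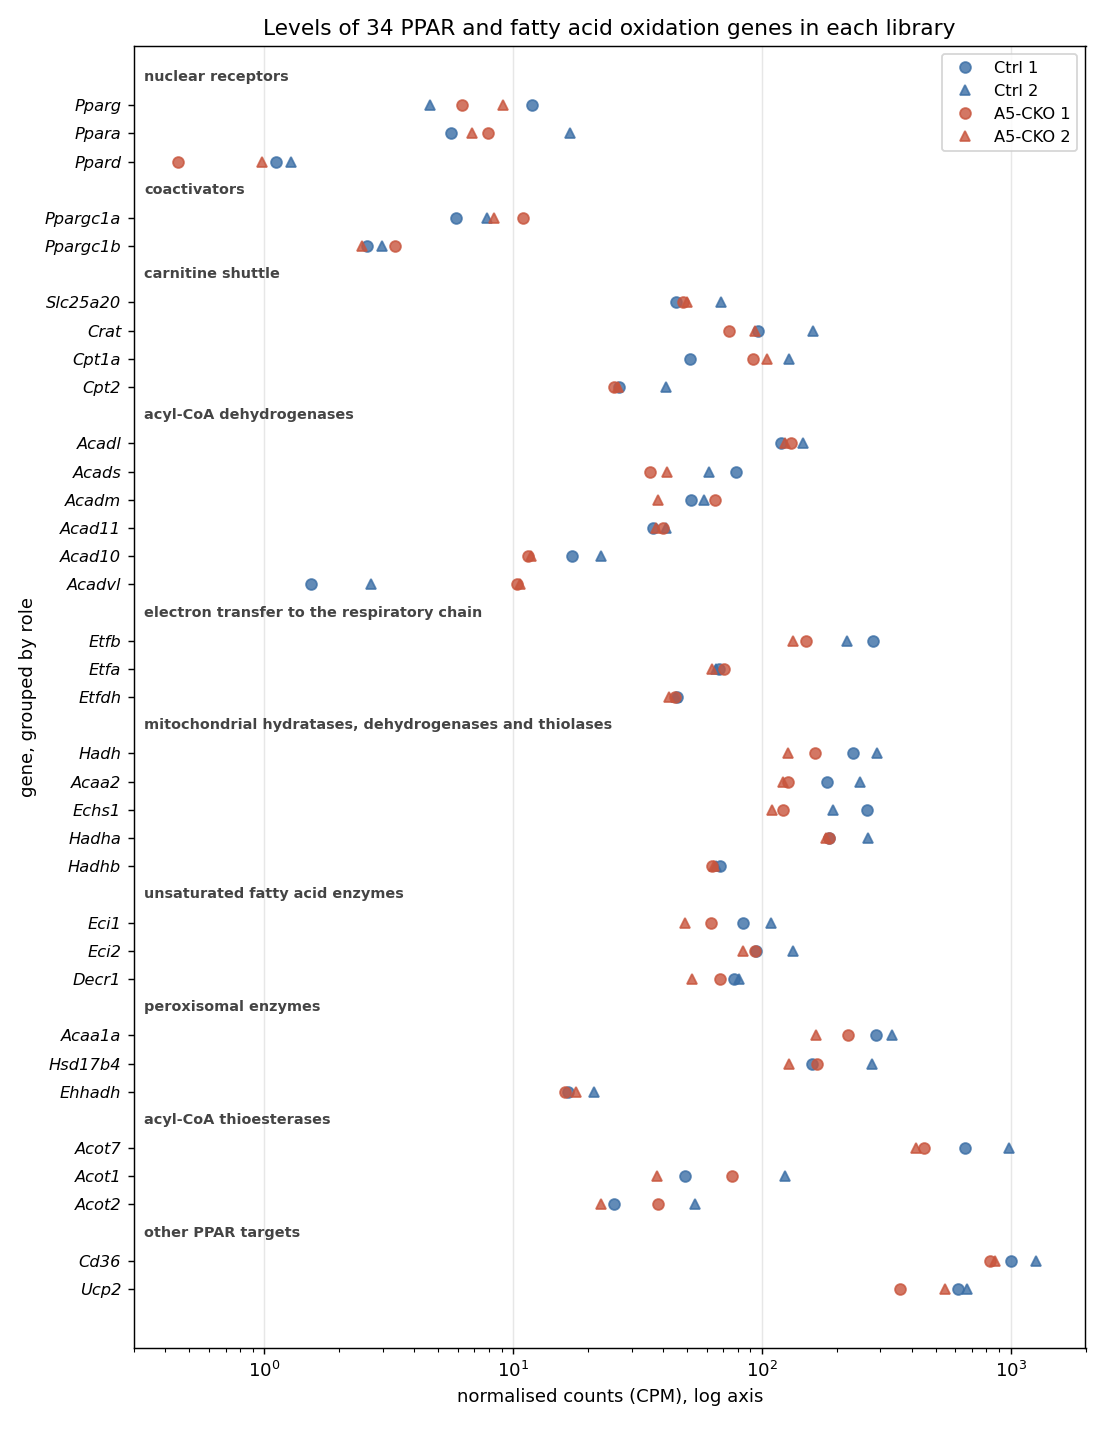
Normalised counts (CPM, log axis) of the 34 tested members in each of the 4 libraries, grouped by role and ordered within a role by level per transcript length, with circles for replicate 1 and triangles for replicate 2. The A5-CKO points of Echs1, Hadh, Acaa2, Acads, Etfb, Eci1 and Acot7 lie left of the Ctrl points, those of Acadvl lie right of them, those of Acadl lie between them, and those of Etfa lie on either side of them.

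The 3 receptors were expressed at low levels. Ppara, the receptor that drives fatty acid oxidation in liver and muscle (chr15:85734910-85806851, GRCm38.p6), had 5.62, 17.0, 7.92 and 6.84 CPM. Ctrl 2 was 3.03-fold above Ctrl 1, and both A5-CKO libraries lay between them. The log2 fold change was -0.62 ± 0.61 (SE), and it was 0.35 without Ctrl 2. Pparg, the receptor best known for fat storage in adipocytes and for the maturation of alveolar macrophages (chr6:115360879-115490404), had 11.9, 4.65, 6.25 and 9.15 CPM. Its groups overlapped, with a log2 fold change of -0.10 ± 0.59 (SE) that was 0.79 without Ctrl 1. The Pparg level was highest in Ctrl 1 and A5-CKO 2, and so was the sum of 14 macrophage markers, at 3110, 524, 374 and 2560 CPM, with none of them at 0 in any library. Chil3 had the highest level of these markers in every library, at 2080, 309, 112 and 1250 CPM. For Ptprc, Siglecf and Cd163, the 2 highest libraries were not Ctrl 1 and A5-CKO 2. The part of macrophage RNA in the Pparg level was not tested.

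Ppard, the most widely expressed receptor of the family in most tissues (chr17:28232754-28301469), had only 19, 22, 10 and 23 counts. Its CPM values were 1.12, 1.28, 0.453 and 0.983. The A5-CKO libraries lay below the Ctrl libraries, but the log2 fold change of -0.74 ± 0.75 (SE) was no larger than its error, and some genes near it that every cell uses were listed at 0, as described with Acadvl.

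The coactivators were close to the receptors in level. Ppargc1a, which encodes PGC-1 alpha, an inducer of mitochondrial biogenesis (chr5:51454249-52115853), had 5.91, 7.85, 11 and 8.42 CPM. Its A5-CKO values were both above the Ctrl values, with a log2 fold change of 0.50 ± 0.47 (SE), which became -0.080 with the correction for GC content and transcript length. Ppargc1b, its paralog PGC-1 beta, had 2.60, 2.97, 3.35 and 2.48 CPM and overlapping groups. Levels compared between genes were set per kilobase of the principal transcript. On that scale Ppard, Ppargc1b and Ppargc1a were the 3 lowest of the tested members, at means of 0.293, 0.779 and 1.29 CPM per kilobase, while Acot7 and Cd36 were the highest, at 417 and 291.

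The carnitine shuttle showed no common direction. Cpt1a, the outer membrane carnitine palmitoyltransferase that limits the entry of long chain fatty acids, had 51.3, 129, 92.5 and 105 CPM. Ctrl 1 was the lowest and Ctrl 2 the highest library, and the log2 fold change was 0.13 ± 0.45 (SE). It was 0.90 without Ctrl 2 and -0.32 without Ctrl 1. Cpt2, the inner membrane partner enzyme, and Slc25a20, the carnitine-acylcarnitine translocase, had log2 fold changes of -0.39 and -0.22. Crat, which moves acetyl groups between CoA and carnitine, had 96.3, 160, 73.8 and 94.1 CPM, with A5-CKO below Ctrl by a narrow margin and a log2 fold change of -0.61 ± 0.35 (SE).

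Some members differed widely within a genotype. The fold between the 2 Ctrl libraries was 2 or more for 5 of 34 members, namely Ppara, Pparg, Cpt1a, Acot1 and Acot2. All but Pparg were higher in Ctrl 2. In A5-CKO it was 2 or more for 2 members, Ppard and Acot1. The median fold between libraries of a genotype was 1.31 in Ctrl and 1.12 in A5-CKO.

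The 6 acyl-CoA dehydrogenases, which take the first step of each round, had log2 fold changes from -0.87 to 2.32. Acads, the short chain enzyme (chr5:115110299-115119346), had 78.8, 61.4, 35.5 and 41.5 CPM. The mean of Ctrl was 70.1 ± 12.3 (SD, n = 2), and that of A5-CKO was 38.5 ± 4.22 (SD, n = 2). The groups did not overlap, and the log2 fold change was -0.87 ± 0.30 (SE, unadjusted p = 0.0239 and adjusted p = 0.528 by edgeR across all genes). Acadm, the medium chain enzyme, had 52.2, 58.8, 64.9 and 38.3 CPM, with the A5-CKO libraries as the highest and the lowest of the 4. Acadl, the long chain enzyme, had 120, 146, 131 and 124 CPM and a log2 fold change of -0.065 ± 0.29 (SE). Acad10 and Acad11, less studied members of the family, had log2 fold changes of -0.78 ± 0.38 (SE) and 0.0029 ± 0.30 (SE). Acad10 shares 20.4% of the 50-base words of its transcript with Acad12, so reads can be uncertain between the 2 genes.

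The electron transfer flavoprotein is a dimer of an alpha and a beta subunit, and the counts of the 2 subunit genes differed in pattern. Etfb, the beta subunit (chr7:43444072-43457800), had 280, 221, 150 and 134 CPM. The A5-CKO libraries did not overlap with Ctrl, and the log2 fold change was -0.82 ± 0.31 (SE, unadjusted p = 0.0341 and adjusted p = 0.528 by edgeR across all genes). Etfa, the alpha subunit, had 67.2, 65.2, 70.8 and 63.3 CPM, a log2 fold change of 0.018 ± 0.28 (SE). Etfdh, the oxidoreductase that hands the electrons to ubiquinone, had 45.6, 45.1, 45.0 and 42.2 CPM. The difference between Etfa and Etfb was not itself tested. With the GC and length correction, the log2 fold change of Etfb was -0.38. Of the 50-base words of the Etfb transcript, 67.3% also occur in the GENCODE gene Gm45233, which is not a gene of the count table. What this does to the reads of Etfb is uncertain and was not tested.

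For the middle and last steps of the mitochondrial round, all 5 genes had a log2 fold change below 0, from -0.98 to -0.064, where 50.9% of all genes did. The A5-CKO values lay below the Ctrl values for all 5, where 23.5% of all genes did so, but for Hadha the nearest values differed by less than their rounding. With total counts only, Hadha and Hadhb had log2 fold changes of 0.025 and 0.25. Echs1, the short chain enoyl-CoA hydratase (chr7:140105710-140116421), had 265, 194, 122 and 110 CPM. Ctrl was 1.98-fold above A5-CKO in the fit, with a log2 fold change of -0.98 ± 0.32 (SE, unadjusted p = 0.0175 and adjusted p = 0.528 by edgeR across all genes). Hadh, the hydroxyacyl-CoA dehydrogenase (chr3:131233419-131272101), had 232, 290, 163 and 127 CPM and a log2 fold change of -0.85 ± 0.32 (SE). Acaa2, the mitochondrial thiolase, had 183, 248, 128 and 122 CPM and a log2 fold change of -0.79 ± 0.31 (SE). The unadjusted p of Hadh was 0.0335 and that of Acaa2 was 0.0402 by edgeR. With the GC and length correction, these became 0.0465 and 0.104, and that of Echs1 became 0.0184.

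Hadha and Hadhb encode the 2 subunits of the trifunctional protein, which carries out the last 3 steps on long chains. They lie head to head on chromosome 5, with 272 bases between their annotated starts. The 250 bases before the start of Hadhb are shown because they lie between the starts of both genes (chr5:30155003-30155252, + strand, GRCm38.p6, from RefSeq), with GC boxes (GGGCGG) in capitals.
Hadha-Hadhb: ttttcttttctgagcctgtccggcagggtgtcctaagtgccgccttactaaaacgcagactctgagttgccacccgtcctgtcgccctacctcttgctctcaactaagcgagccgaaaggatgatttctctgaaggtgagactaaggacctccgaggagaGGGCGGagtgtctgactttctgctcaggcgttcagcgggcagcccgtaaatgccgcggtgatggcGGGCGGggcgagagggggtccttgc

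The stretch holds 2 GC boxes, a motif found on either strand in 35.7% of 32851 RefSeq promoter windows. Hadha had 187, 268, 187 and 182 CPM, so that Ctrl 2 stood above the 3 other libraries, and its log2 fold change was -0.30 ± 0.32 (SE). Hadhb had 68.1, 65.2, 63.2 and 64.2 CPM, with a log2 fold change of -0.064 ± 0.27 (SE). The A5-CKO libraries of both genes were below Ctrl by margins within the spread of the libraries. Of the 50-base words of Hadhb, 61.5% also occur in the GENCODE gene Gm13910, which is not a gene of the count table either. What this does to the level of Hadhb is uncertain and was not tested.

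Unsaturated fatty acids need auxiliary enzymes, and for all 3 of their genes the A5-CKO values lay below the Ctrl values, where 23.5% of all genes did so. Eci1, an enoyl-CoA isomerase (chr17:24426683-24439316), had 83.7, 109, 62.3 and 49 CPM. Its log2 fold change was -0.79 ± 0.31 (SE), with an unadjusted p of 0.0366 by edgeR and 0.186 with the GC and length correction. Its relative Eci2 had a log2 fold change of -0.36 ± 0.31 (SE). Decr1, the dienoyl-CoA reductase, had 77.4, 81.2, 68.2 and 52.5 CPM and -0.39 ± 0.29 (SE), which became -0.67 with the correction.

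Peroxisomes shorten very long chain fatty acids before mitochondria take over. Acaa1a, the peroxisomal thiolase, had 287, 335, 222 and 165 CPM. Its groups did not overlap, with a log2 fold change of -0.68 ± 0.33 (SE) and an unadjusted p of 0.0747 by edgeR. It shares 34% of its 50-base words with Acaa1b, which had 14 to 41 counts per library. Hsd17b4, the D-bifunctional enzyme, had 159, 278, 167 and 129 CPM and overlapping groups. Ehhadh, the L-bifunctional enzyme and a classical PPAR alpha target in liver, had 16.7, 21.2, 16.2 and 18 CPM and a log2 fold change of -0.15 ± 0.37 (SE).

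Acyl-CoA thioesterases release free fatty acids from CoA. Acot7, a mainly cytosolic enzyme, was the member with the highest level per kilobase. Acot7 (chr4:152178100-152271855) had 658, 984, 447 and 418 CPM. The mean of Ctrl was 821 ± 230 (SD, n = 2) and that of A5-CKO 433 ± 20.5 (SD, n = 2), without overlap, and the log2 fold change was -0.92 ± 0.36 (SE). Its unadjusted p was 0.0388 by edgeR and 0.137 with the GC and length correction. Acot1, a cytosolic enzyme induced by PPAR alpha agonists, had 49.3, 124, 75.6 and 37.8 CPM. Acot2, its mitochondrial neighbour on chromosome 12, had 25.4, 54.1, 38.4 and 22.7 CPM. The order of the 4 libraries was the same for both genes, with Ctrl 2 highest and A5-CKO 2 lowest. Acot1 shares 23.7% of its 50-base words with Acot2, and the part of shared reads in this likeness was not tested.

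**Figure D2:**
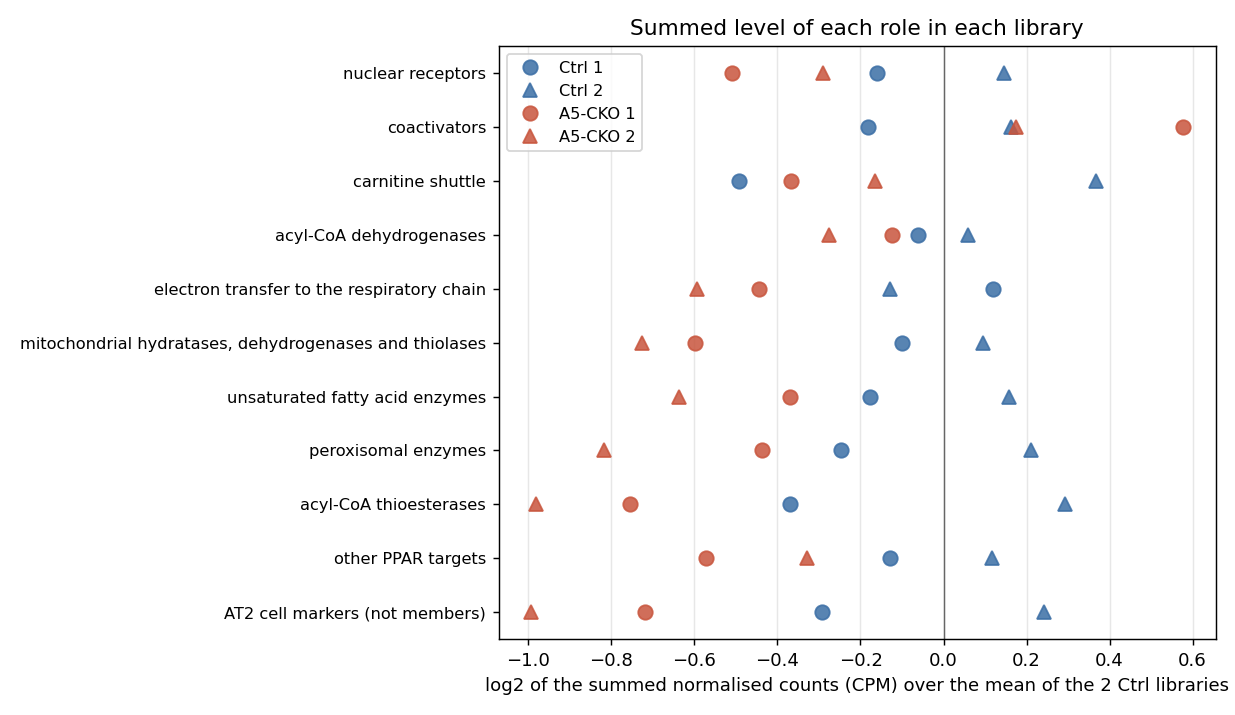
Summed CPM of the members of each role in each library, as the log2 of the ratio to the mean of the 2 Ctrl libraries, with the 10 AT2 cell markers as the last row. The enzymes of the middle and last mitochondrial steps summed to 935 and 1070 CPM (Ctrl) or 662 and 606 CPM (A5-CKO), and the A5-CKO points of that row and of the AT2 row lie left of the Ctrl points.

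Of the 3 other PPAR targets, 2 were measured at high levels. Cd36, a fatty acid translocase of the cell surface, had 1000, 1260, 828 and 863 CPM, and its log2 fold change was -0.42 ± 0.35 (SE). The GC and length correction moved it to -0.99, and its transcript had the lowest GC content of the members, at 38.4%. Ucp2, a mitochondrial carrier of the uncoupling protein family, had 615, 668, 360 and 545 CPM and a log2 fold change of -0.50 ± 0.36 (SE). The A5-CKO libraries of both genes were below Ctrl. Angptl4, the secreted inhibitor of lipoprotein lipase and a standard readout of PPAR activity, was listed at 0 in all 4 libraries.

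**Figure D3:**
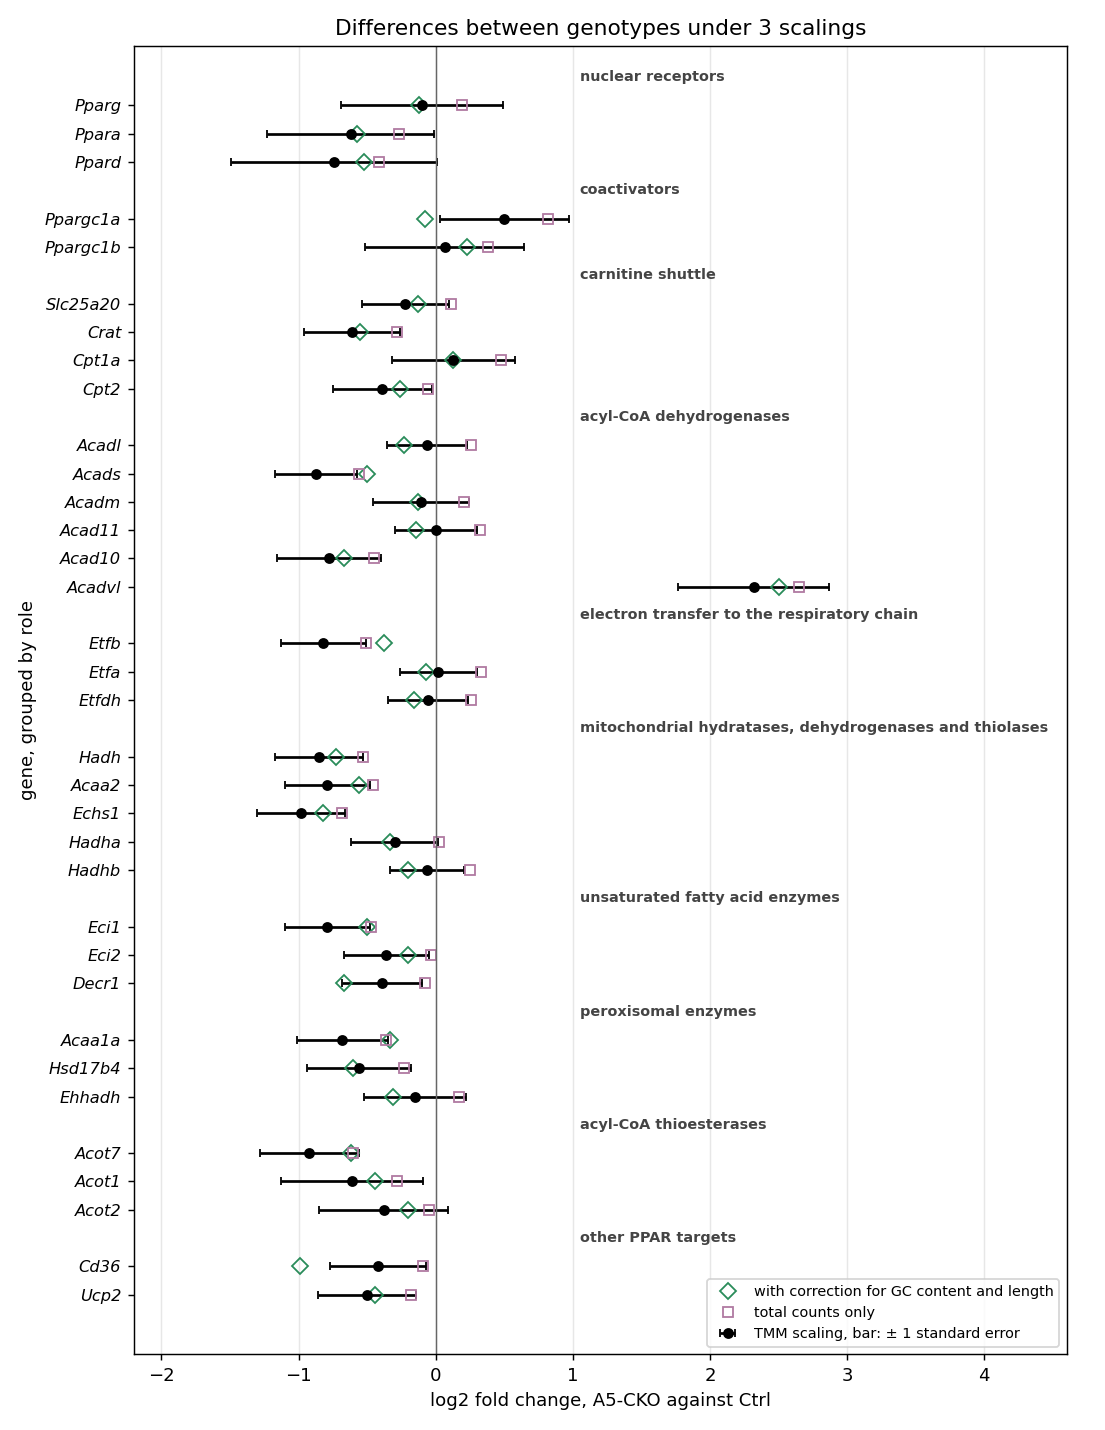
Log2 fold change of A5-CKO against Ctrl for the 34 tested members with TMM scaling (black, bars of 1 standard error), with the GC and length correction (diamonds) and with total counts only (squares). With TMM scaling 28 genes lie below 0, with the correction 31 and with total counts only 20, and Acadvl lies alone on the far right.

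The levels of Acadvl, Angptl4 and Ppard are uncertain, since some genes near them that every cell uses had almost no counts. Acadvl, the very long chain acyl-CoA dehydrogenase (chr11:70010183-70015428), had 26, 46, 230 and 251 counts, or 1.54, 2.68, 10.4 and 10.7 CPM. The A5-CKO libraries were above Ctrl, with a log2 fold change of 2.32 ± 0.55 (SE), an unadjusted p of 0.00391 and an adjusted p of 0.528 in edgeR. DESeq2 at its default filter gave an adjusted p of 0.0134, and the alternatives spanned 0.0134 to 0.878. Leaving out each library in turn gave 2.04 to 2.73. Per kilobase it stood at 2.92 CPM, against 67.8 for Acadl.

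On the same stretch of chromosome 11, Gabarap, an autophagy gene used by all cells, had 2, 2, 0 and 0 counts, and Ctdnep1 and Phf23 had 0 in all 4 libraries. Of the 50-base words of the Acadvl transcript, 24.0% also occur in Dvl2, which ends next to it. Dvl2 had 48, 52, 38 and 30 counts. Both A5-CKO libraries thus lay below both Ctrl libraries, the opposite direction to Acadvl. Beside Angptl4, the ribosomal protein gene Rps28 had 0, 6, 2 and 3 counts and the respiratory chain gene Ndufa7 had 0 in all 4. Within 500 kb of Ppard, the splicing factor gene Snrpc and the transcription factor gene Taf11 had 0 in all 4, whereas the ribosomal protein gene Rpl10a, which is closer to it, had 227, 106, 816 and 207 counts. The RNA polymerase gene Polr2a, within 500 kb of Acadvl, had 24435 counts in all, so the low counts did not cover the whole window. Of 254 genes of ubiquitous families in the table, 10 had no more than 10 counts in any library, or 3.94%. Such a gene lay within 500 kb of these 3 members. Of the 32 other members, 9 had a gene of these families within that distance, 11 such genes in all, and none of those was that low.

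These low counts were found in both genotypes, and their cause was not tested. Neither Angptl4 nor Ppard shares any 50-base word with another gene of GENCODE M21. That search covered only transcripts of other gene names, so it cannot show a further copy of the same locus. Without Acadvl and Ppard, the median log2 fold change of the members stayed at -0.39, with 7 lower and 0 higher at an unadjusted p under 0.05.

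**Figure D4:**
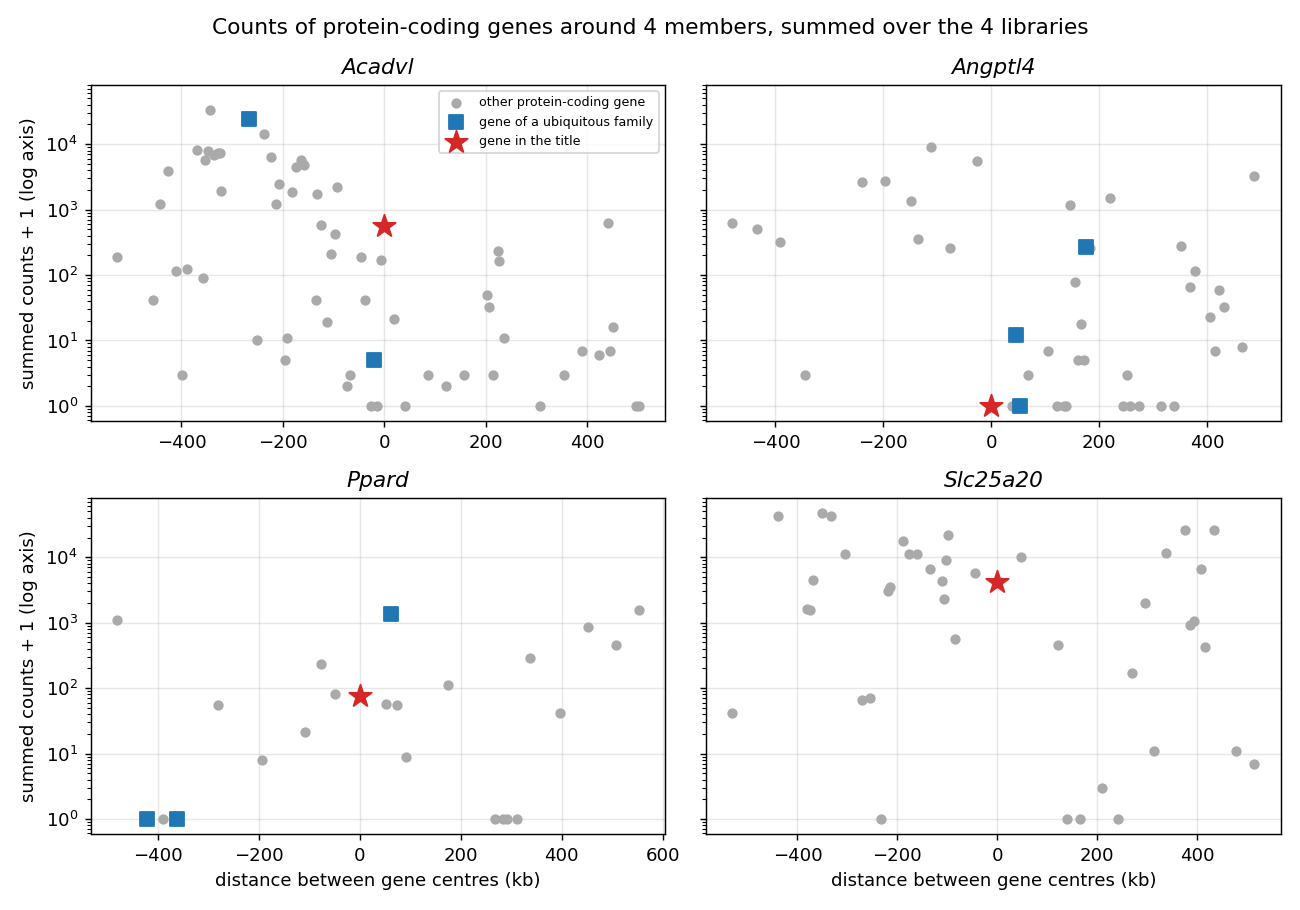
Counts summed over the 4 libraries plus 1 (log axis) of protein-coding genes within 500 kb of Acadvl, Angptl4, Ppard and, for comparison, Slc25a20, against the distance between gene centres in kb. Genes of ubiquitous families (squares) at or near 0 counts lie within the window of the first 3 genes (stars), together with others that have counts. The window of Slc25a20 holds 0 genes of these families, so it cannot show a low one. In it, 5 of 41 other protein-coding genes had at most 3 counts in every library. Nckipsd, Celsr3, Slc26a6 and Tmem89 lie in a row there and had 0, 0, 2 and 0 counts in all. Uqcrc1, next to them, had 170, so a run of low counts was also found in this window.

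Among 78 further genes of the pathway, 63 had enough counts, and 41 of these had a log2 fold change below 0, where 50.9% of all genes did. In edgeR and limma voom 0 of them had an adjusted p under 0.05, where 0.0% of all genes did in edgeR, and 2 did in DESeq2 at its default filter, Pdk4 and Fabp5, where 0.385% of all genes did. At an unadjusted p under 0.05 in edgeR, 7 were lower in A5-CKO, where 4.71% of all genes were, and 2 were higher, where 4.48% were. With total counts only these numbers were 2 lower and 6 higher, where 1877 of all 16661 genes passed in either direction. Of 30 further oxidation genes tested, 23 had a log2 fold change below 0, with a median of -0.26. Of 20 further PPAR targets, 14 did, with a median of -0.34. Of 13 receptor partners and coregulators, 4 did, with a median of 0.24.

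The 2 higher genes were Pdk4 and Sirt1. Pdk4, a PPAR target whose kinase blocks pyruvate oxidation and so spares glucose while fatty acids are burnt, had 3.49, 3.67, 20.5 and 20.9 CPM. The libraries of a genotype were nearly equal, and those of A5-CKO were above Ctrl, with a log2 fold change of 2.53 ± 0.42 (SE) and an adjusted p of 0.528 in edgeR, against 3.56e-05 in DESeq2 at its default filter. Sirt1, a deacetylase that acts on PGC-1 alpha, had 16.4, 17.3, 38.3 and 26.5 CPM, and its log2 fold change of 0.94 became 0.56 with the GC and length correction.

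Fabp5, a cytosolic fatty acid binding protein that can deliver ligands to PPARs, had 1560, 961, 384 and 314 CPM. Its groups did not overlap, and the log2 fold change was -1.85 ± 0.40 (SE), with an adjusted p of 0.528 in edgeR, against 0.00724 in DESeq2 at its default filter. It was -1.41 to -2.21 with each library left out in turn. Hsd17b10, a mitochondrial hydroxyacyl-CoA dehydrogenase, had 199, 156, 93.2 and 95.7 CPM and a log2 fold change of -0.91 ± 0.30 (SE). Mlycd, which removes the malonyl-CoA that inhibits the entry of fatty acids, had a log2 fold change of -0.83, and Ech1, a dienoyl-CoA isomerase, had -0.81. Nr1h3, the oxysterol receptor LXR alpha, had 46.1, 42.4, 21.4 and 20.6 CPM and -1.07 ± 0.31 (SE), although Ndufs3, a respiratory chain gene within 500 kb of it, had at most 5 counts.

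Markers of other cell types varied within the genotypes. Mesenchymal markers summed to 435, 162, 103 and 1130 CPM over 10 genes, endothelial markers to 200, 269, 139 and 272 over 10 genes, of which Cldn5 was at 0 in all 4 libraries, and markers of B, plasma and T cells to 697, 111, 182 and 678 over 8 genes. Most of the last sum was the plasma cell gene Jchain, at 622, 69.6, 136 and 634 CPM, whereas the B cell gene Ms4a1 and the T cell genes Cd3e, Cd3g, Cd4 and Cd8a were lowest in A5-CKO 2. Airway markers summed to 2890, 2800, 2010 and 1280 CPM over 8 genes, and thus were lower in A5-CKO, like the AT2 markers and the members. Markers of transitional cells summed to 3140, 1300, 1860 and 3380 CPM over 7 genes. AT1 cell markers summed to 1300, 1090, 1000 and 1030 CPM over 7 genes, of which Aqp5 had the highest level in every library, at 981, 951, 479 and 636 CPM. Of the 5 AT1 markers tested, the 4 others had log2 fold changes above 0, from 0.63 for Hopx to 1.55 for Akap5. The defining markers Ager and Pdpn were at or below 0.77 CPM in every library, but these levels are uncertain. Within 500 kb, 31 of 58 protein-coding genes around Ager (53.4%) and 13 of 14 around Pdpn (92.9%) were at the floor of counts. The shares around Acadvl, Angptl4 and Ppard were 25.4%, 33.3% and 34.8%. Over the 35 members the share ranged from 0.0% (Ppara) to 66.7% (Acadm). It was 60.0% around Cd36 and 58.5% around the transitional marker Krt19, which both had high counts. A high share therefore does not by itself mark a gene whose level is uncertain. Both marker windows hold 0 genes of the ubiquitous families, so a low one cannot be looked for, and the cause was not tested. Ctrl 1 and A5-CKO 2 were the 2 highest libraries for the mesenchymal and transitional sums and for Jchain. The part of these cells in the members' levels was not tested.

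Promoter sequence was searched because PPARs bind DNA at direct repeats. RefSeq windows from 250 bases before to 50 after the start were found for 29 of the 35 members, 31 windows in all. The PPAR response element, a repeat of AGGTCA with 1 base between the copies, was in 0 of the 31 windows on either strand, and in 0.0396% of 32851 windows. A relaxed form with AGGNCA in both copies, which includes the strict form, was in 0 of the 31 and in 0.381% of all. The element of the estrogen-related receptors, TCAAGGTCA, was in 0 of the 31 and in 0.423% of all. These letters are not in these windows, and sites farther from the start were not searched. The motifs are so rare over all windows that finding 0 of 31 cannot set the members apart.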

How the data were processed

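RNA-seq was measured in 2 Ctrl and 2 A5-CKO libraries. Per the labels and the methods, the authors trimmed reads with Trim Galore 0.6.10, removed ribosomal RNA reads, aligned with HISAT2 2.2.1 to mm10.p6, removed duplicates with sambamba and counted with featureCounts 2.0.3. The methods describe the counting under another assay, and the same steps were assumed for these libraries. The deposited values are raw read counts per gene, without pooling. The strand setting is not given in the sources used here, so overlapping genes are uncertain.

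Groups were taken from the genotype labels. Nothing in the labels says more than that the libraries are separate samples, so p-values measure the spread between these samples. Counts were analysed with edgeR 4.0.16 in R 4.3.3 (TMM factors from 0.86 to 1.13, filterByExpr, glmQLFit and glmQLFTest), with Benjamini-Hochberg adjustment over 16661 genes. The biological coefficient of variation was 41.6%. Standard errors are the log2 fold change over the square root of F. A permutation of 2 against 2 libraries cannot give a two-sided p under 0.333. Alternatives were other scaling factors, other filters, a robust fit, DESeq2 1.42.0, limma voom 3.58.1, a replicate block, each library left out, and, added after seeing the data, a correction for GC content and transcript length by per-library splines over 15237 genes. Script steps were tested on simulated counts.

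Members and gene lists were chosen with earlier results of these data known, and the ubiquitous families after the counts of Acadvl were seen. Named genes were the receptors and coactivators, members and at most 6 pathway genes per direction with an unadjusted p under 0.05 and groups that do not overlap, and examples of each role. A pathway gene that this rule names is not reported here. Transcript lengths and 50-base words came from GENCODE M21, coordinates and promoters from RefSeq GRCm38.p6, where 99.4% of the names were found. Of the table's rows, 223 lie on fix patches.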

Additional observations from a re-analysis of the deposited data

How the results depend on the processing

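With 2 libraries a group, the spread within a genotype limits every call. The count of members with an adjusted p under 0.05 was 0 in every edgeR and limma fit and 1 in DESeq2 on the same genes and at its default filter, where the other pathway genes gave 2 and all genes 55 and 59. Members lower at an unadjusted p under 0.05 numbered 7, but 3 with upper-quartile factors, 0 with total counts only, 1 with the replicate block, 4 with the GC and length correction, and 0 to 7 with each library left out. Those higher numbered 1, and 1 to 2 with each library left out, or 0 without Acadvl and Ppard. Pathway genes lower numbered 7, but 2 with total counts only, 4 with the block and 1 to 9 with each library left out, and those higher 2, but 6, 1 and 1 to 4. The members' median of -0.39 was -0.068 with total counts only, and -0.52 to -0.14 with each library left out. Alkbh5 had an adjusted p under 0.05 only in DESeq2, where its log2 fold changes were -2.01 (same genes) and -2.02 (default filter). Why the counts moved was not tested.

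Some log2 fold changes changed sign, including those of Ppara, Acot1, Acot2 and Ppargc1a, which were not close to 0. With total counts only these were Pparg 0.19, Slc25a20 0.11, Acadl 0.26, Acadm 0.21, Etfdh 0.26, Hadha 0.025, Hadhb 0.25 and Ehhadh 0.17. With upper-quartile factors they were Acadl 0.033, Etfdh 0.038 and Hadhb 0.031. With the GC and length correction they were Ppargc1a -0.080, Acad11 -0.14 and Etfa -0.068, without a filter Acad11 -0.031 and Etfa -0.017, in limma voom Pparg 0.029, and with the replicate block Pparg 0.020. With each library left out, the ranges were -1.15 to 0.35 for Ppara, -0.66 to 0.79 for Pparg, -0.18 to 0.23 for Ppargc1b, -0.32 to 0.90 for Cpt1a, -0.43 to 0.071 for Slc25a20, -0.14 to 0.042 for Acadl, -0.55 to 0.19 for Acadm, -0.056 to 0.056 for Acad11, -0.077 to 0.10 for Etfa, -0.12 to 0.0091 for Etfdh, -0.14 to 0.027 for Hadhb, -1.21 to 0.15 for Acot1 and -0.82 to 0.21 for Acot2. The fit without the replicate block was kept because the labels tie the numbers to no shared litter, batch or day, and libraries that share a number had deviations correlated at -0.35 over genes, which does not show how the samples were handled.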

Other observations

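Other genes of the lists also lie within 500 kb of genes of ubiquitous families with almost no counts. These were Rxrb, a partner receptor of the PPARs, beside Rps28 and Ndufa7, and the macrophage marker Cd68, beside Gabarap. Fabp4, a PPAR gamma target of fat cells and alveolar macrophages chosen here after its values were seen, had 15.4, 2.21, 2.99 and 6.88 CPM in the same order of libraries, and was thus highest in the 2 libraries with the most macrophage marker RNA.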
